A study of Rattus norvegicus with 15 samples.

Results

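Regulated exocytosis is the step by which a chromaffin cell releases its hormones. Catecholamines and peptides are packed with granins into dense core granules, the granules are brought to the plasma membrane by Rab proteins and their effectors, and a complex of SNARE proteins fuses the membranes when synaptotagmins and related proteins sense calcium. Adrenal chromaffin cells are a classical system for the study of this machinery, and granins are used as blood and tissue markers of the tumors that arise from them.

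The genes described here were taken by their names from tables that list genes called by the authors. They were all genes with symbols of the granin, granule enzyme, synaptotagmin, SNARE, complexin, Munc13, CAPS, SV2, synaptophysin, synapsin, Rab3, Rab27, RIM and liprin families that appeared in any of the 3 tables of the series. These were 82 gene models with 81 symbols, of 8621 genes in the tables (*Sytl2* had 2 gene models). The symbol pattern also took 8 genes with other or less certain places in exocytosis, such as *Rab35* and *Snap91*, and these were kept as a group of their own. The measured genes were grouped by role into 3 granins, 5 peptide processing and granule membrane enzymes, 8 vesicle membrane proteins, 14 calcium sensors, 16 SNARE proteins, 11 SNARE regulators, 17 Rab3 and Rab27 proteins with effectors and active zone proteins, and the 8 others.

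The samples were adrenal medullae of 15 rats of the Sprague-Dawley strain (spelled Sprague-Dawely in the labels), 5 in each group. WT rats were wild type animals of 7 to 9.5 months. HYP samples were hyperplastic medullae of MENX rats of 4 to 5 months, and PCC samples were pheochromocytomas of MENX rats of 7 to 9.5 months. By the study's description the PCC group mixed tumors and advanced tumors, and the labels do not say which sample was which. MENX rats carry a spontaneous frameshift mutation in *Cdkn1b*, which encodes the cell cycle inhibitor p27, in every cell. HYP and WT therefore differed in genotype and in age, and these cannot be told apart. PCC and WT had the same age range but differed in genotype and in tumor state, and these too cannot be told apart. PCC and HYP differed in stage and in age, which cannot be told apart either. By the study's methods each sample was macrodissected with the cortex removed, and a lower level of an RNA in such a sample can mean fewer cells of a type or less of the RNA per cell, which cannot be told apart.

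The libraries held between 16315018 and 23831269 reads assigned to genes, as recovered from the tables. Each table lists only genes that the authors called in that comparison, so the members had been chosen on the same samples and their counts of calls are not independent evidence of change. For that reason the shares of all genes tested that were called are given for each comparison, and every count of a role or list is to be read against them. *Chga*, *Chgb*, *Pcsk1*, *Pcsk2*, *Pam* and *Nsf* were not in the tables and were not analysed here. Of 132 protein-coding RefSeq symbols that fit the name rule 81 were listed (61.4%), against 30.7% of all protein-coding symbols. These shares count symbols whether or not they are expressed in the adrenal medulla, so they are not a measure of change. Levels are read counts scaled to library size (CPM), and a gene was called at an adjusted p under 0.05 in the quasi-likelihood test of edgeR, adjusted over all genes the authors tested.

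Promoter sequences are shown because the cAMP response element, a short binding motif for factors of the CREB family, lies in windows of some members. RefSeq windows of 300 bases (250 before to 50 after the start, build GRCr8) were found for 62 of the 81 symbols. The letters TGACGTCA, which read the same on both strands, were in 4 of the members' 71 windows (5.63%), each of another gene, and in 1.83% of all 33469 windows. These were *Scg2*, *Syn1*, *Vamp1* and *Napa*. The 30 bases around the motif are given on the gene's strand with the motif in capitals.
Scg2, chr9:88256971-88257000, minus strand: ggctgagccggTGACGTCAgcgaggaatgc
Syn1, chrX:3725544-3725573, plus strand: caaaggcgggcTGACGTCActctccagccc
Vamp1, chr4:159698812-159698841, plus strand: cctggagatttTGACGTCAtccacgaggcg
Napa, chr1:85915365-85915394, plus strand: gcagacccgggTGACGTCAacgtagcgggc

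The motif began 123 bases before the start in *Scg2*, 190 in *Syn1*, 71 in *Vamp1* and 59 in *Napa*. Of the 4 genes, *Scg2*, *Syn1* and *Vamp1* were called higher in PCC vs. WT, beside 42 of the 62 symbols with a window. *Napa* was called lower in HYP vs. WT, a call lost when any 1 of 8 samples was left out. It was not listed in PCC vs. WT. The whole 250 bases before the start of *Vamp1* show the motif in its context.
Vamp1, chr4:159698644-159698893, plus strand: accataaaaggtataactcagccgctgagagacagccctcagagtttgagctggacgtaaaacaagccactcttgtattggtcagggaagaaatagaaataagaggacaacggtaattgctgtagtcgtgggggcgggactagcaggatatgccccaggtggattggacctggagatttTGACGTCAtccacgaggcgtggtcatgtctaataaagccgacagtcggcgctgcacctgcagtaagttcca

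The left part of RE1, the element bound by the neuronal repressor REST, was searched as TTCAGCACC on both strands. It was in windows of *Ptprn2*, *Scg2* and *Unc13a*, or 4.23% of the members' windows, and in 0.356% of all windows. All 3 genes were called higher in PCC vs. WT, beside 42 of the 62 symbols with a window. The right part, GGACAGCG, was in windows of *Ptprn2*, *Syt6*, *Unc13a* and *Unc13b*, all called higher too. These were 5.63% of the members' windows, against 1.21% of all windows. *Ptprn2* encodes a tyrosine phosphatase-like protein of the granule membrane. In it the left part lay on the opposite strand and began 21 bases before the start, as the capitals show.
Ptprn2, chr6:143582318-143582567, plus strand: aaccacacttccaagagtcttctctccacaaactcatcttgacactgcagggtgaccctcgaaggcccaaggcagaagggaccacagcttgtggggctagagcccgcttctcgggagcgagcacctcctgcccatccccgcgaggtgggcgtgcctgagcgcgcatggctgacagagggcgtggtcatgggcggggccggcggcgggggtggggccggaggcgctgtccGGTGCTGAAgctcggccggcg

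The GC box GGGCGG was in 54 of the 71 members' windows (76.1%) and in 33.1% of all windows, and TATAAA was in 4 (5.63%) and in 14.2% of all windows, each searched on both strands. The windows of all genes include genes that encode no protein. These matches describe letters in a window and were not tested for binding or for a link to the direction of calls.

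PCC vs. WT asked how the tumors differ from the normal medulla. Of 73 listed members 71 could be tested, 57 of them were higher in PCC and 8 were lower, and 6 were not called. Among all 7001 genes tested 46.7% were called higher and 38.5% lower, so that 85.2% were called, against 80.3% and 11.3% of the members. The median log2 fold change was 1.58 over the members and 0.44 over all genes tested. The 2 groups did not overlap in 54 members, or 76.1%, against 63.5% of all genes. Calcium sensors had the highest median of the roles, 2.15, with 13 of 14 higher, and SNARE proteins had the lowest, 0.57, with 8 of 15 higher, 2 lower and 5 not called.

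HYP vs. WT asked whether a difference was present at the hyperplastic stage. By the study's histology an early tumor can already be present at that age. Of 52 members tested 38 were higher in HYP, 8 were lower and 6 were not called. Here 39.5% of all 4108 genes tested were called higher and 32.5% lower, 72.1% in all, and the median log2 fold change was 1.19 over the members and -0.37 over all genes. The groups did not overlap in 42 members, against 55.8% of all genes. PCC vs. HYP asked what differed between the 2 stages of MENX rats, which also differed in age. Of 46 members tested 20 were higher in PCC, 1 was lower and 25 were not called, beside 21.8% higher, 22.6% lower and 44.4% called in either direction among all 3148 genes. The members' median was 0.78 and that of all genes 0.43. The groups did not overlap in 25 members, against 53.5% of all genes. This comparison was the least stable, since only 6 members were called higher without HYP replicate 3 or without HYP replicate 4. Of the 20 calls 14 were lost in at least 1 of the 10 fits that left out a sample, and so were 11 of the 38 higher calls in HYP vs. WT and 5 of the 57 in PCC vs. WT. All 8 lower calls in HYP vs. WT were lost in at least 1 such fit, and 3 of the 8 in PCC vs. WT. Without PCC replicate 2, HYP replicate 1 or HYP replicate 5 there were 12, and without PCC replicate 3 there were 13.

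**Figure D1:**
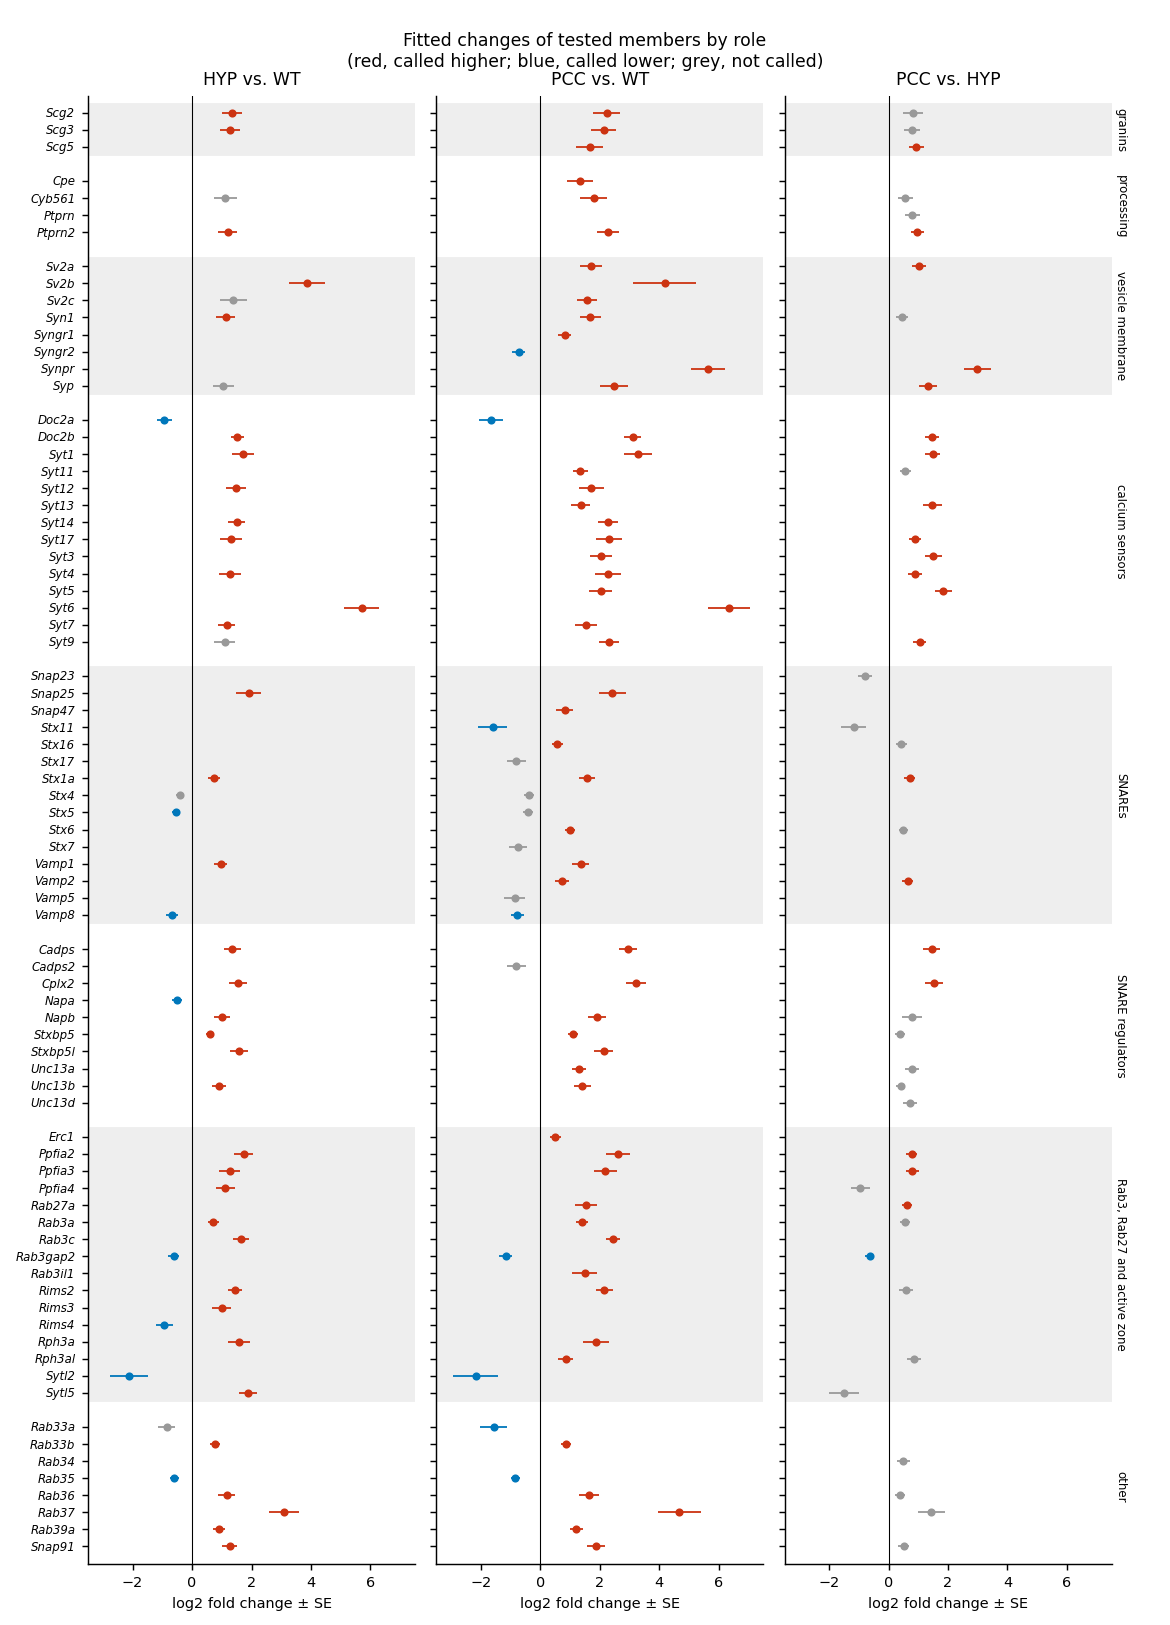
Fitted log2 fold changes with standard errors (horizontal axis) of tested members, grouped by role (vertical axis), in the 3 comparisons. Red points were called higher, blue points lower and grey points not called, a missing point means that the gene was not listed or not tested, and not every tested member is drawn. Red points make up most of the middle panel and are fewer in PCC vs. HYP.

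PCC and HYP share their WT control in the first 2 comparisons, so the values are given side by side and no agreement between them was tested. In all 3 comparisons 10 members were called higher and 1, *Rab3gap2*, was called lower. Another 12 were higher than WT in both PCC and HYP and were not called between PCC and HYP. Only the 27 members listed in all 3 comparisons could be counted here. The share of all genes with these patterns was not counted, so these numbers are descriptive.

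Marker RNA of chromaffin, cortex and endothelial cells differed between WT and PCC as well. The summed level of 10 chromaffin cell markers, among them *Th* and *Dbh* of catecholamine synthesis, ranged from 1711 to 7424 CPM in WT, from 8056 to 12850 in HYP and from 14760 to 28670 in PCC, and all 10 were called higher in PCC vs. WT. The list held 12 markers, but *Gata3* had no values in PCC and *Pnmt* was not listed, so neither was summed or used for scaling. The study reported lower *Pnmt* in advanced tumors by qRT-PCR. The sum of 9 adrenal cortex markers ranged from 26250 to 58560 CPM in WT, from 12680 to 31730 in HYP and from 893 to 14550 in PCC. In every WT and HYP sample the cortex sum was above the chromaffin sum, and in every PCC sample it was below. The WT and HYP samples thus held much cortex RNA, against their description as tissue freed of cortex. Of 12 cortex markers tested 10 were called lower in PCC vs. WT. No marker in either sum was at 0 in all samples of a group. Endothelial markers summed to 531 to 665 CPM in WT, 350.2 to 445 in HYP and 168 to 405 in PCC, and 5 of 7 were called lower in PCC vs. WT. Of 7 sustentacular and Schwann cell markers 5 were called higher and 2 lower in PCC vs. WT, and their sums overlapped between all groups. The part of these cell types in the members' values was not tested.

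The 63 members with values in every sample summed to between 2101 and 4699 CPM in WT, 6238 and 8839 in HYP and 9970 and 17530 in PCC, and the groups did not overlap. The lowest sum of the members and the lowest sum of the chromaffin markers were both in WT replicate 5, which was the lowest WT sample in 42 of the 63 members. With the cortex marker level as a covariate, 7 members were called higher in PCC vs. WT (9.86%), 1 in HYP vs. WT (1.92%) and 0 in PCC vs. HYP, and none was called lower in any of them. Calls were lost over all genes too, where 5.08%, 1.53% and 0.889% of all genes tested were called higher and 2.86%, 2.39% and 0.159% lower with that covariate. The covariate moved with the groups, and its part in the differences cannot be told apart from theirs. When libraries were scaled to the chromaffin markers, an alternative chosen after the data were seen, the median of all genes moved by -3.17 on the log2 scale in PCC vs. WT. There 3 members were then called higher and 36 lower (50.7%), beside 79.4% of all genes tested called lower, and the median was -1.37 over the members and -2.94 over all genes. In HYP vs. WT 10 members were lower (19.2%, against 52.1% of all genes) and in PCC vs. HYP 15 (32.6%, against 55.3%). Every direction given here is relative to the listed genes of the tissue as a whole, and members called higher on that scale need not be higher relative to the chromaffin markers. *Syt6*, *Synpr* and *Rab37* were still called higher in PCC vs. WT on that scale.

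**Figure D2:**
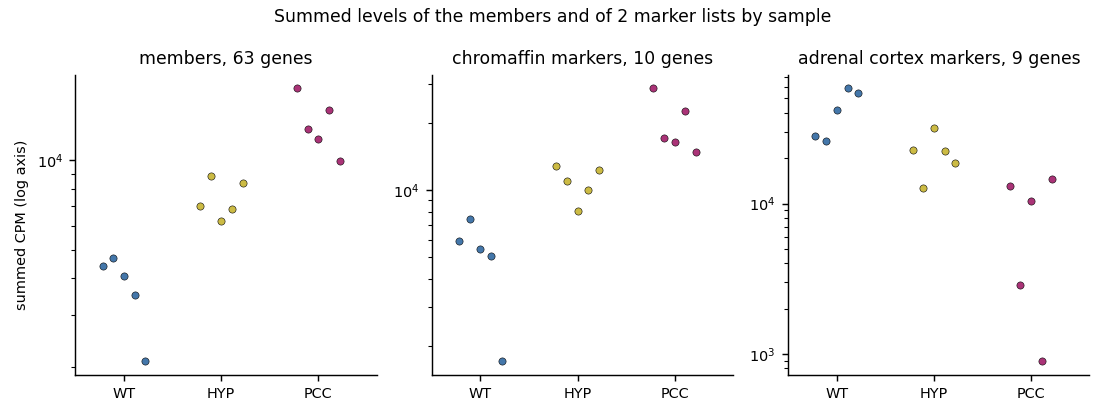
Summed CPM (log axis) in each sample of WT, HYP and PCC for the 63 members with values in all samples, 10 chromaffin cell markers and 9 adrenal cortex markers, with replicates 1 to 5 from left to right. The sums of the members and of the chromaffin markers rise from WT to PCC without overlap, and WT replicate 5 is lowest in both.

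The granins form the core of the granule. *Scg2* encodes secretogranin II, a granin that is cut into peptides such as secretoneurin, and lies at chromosome 9, 85237458 to 85243001, minus strand, in the Rn06 build of the files. It had the highest level per kb of gene length of all members in each group, 384 CPM per kb in WT, 1013 in HYP and 1907 in PCC. Its level was 1167, 1215, 1101, 847 and 291 CPM in WT replicates 1 to 5. In HYP it was 2161, 3053, 2227, 2167 and 2591 CPM. In PCC it was 8728, 4253, 3574, 3460 and 2949 CPM, so that PCC replicate 1 stood far above the rest and PCC replicate 5 lay within the HYP range. The log2 fold change was 2.23 ± 0.47 (SE, adjusted p = 0.00387) in PCC vs. WT and 1.34 ± 0.33 (adjusted p = 0.0164) in HYP vs. WT, and it was 0.81 ± 0.33 in PCC vs. HYP, which was not called (adjusted p = 0.196).

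*Scg3*, a granin that binds granule membranes and holds other granins there, followed *Scg2* from sample to sample. It ranged from 17.7 to 78.9 CPM in WT, from 120 to 202 in HYP and from 156 to 470 in PCC, with a log2 fold change of 2.13 ± 0.43 in PCC vs. WT (adjusted p = 0.00305). The ratio of *Scg2* to *Scg3* per kb was 13.2 to 14.6 in WT, 13.4 to 16.0 in HYP and 12.6 to 16.9 in PCC, so the groups overlapped in this ratio although both genes were higher in HYP and PCC than in WT. *Scg5*, which encodes the chaperone 7B2 of the convertase PC2, ranged from 21.6 to 137 CPM in WT and from 191 to 460 in PCC, and its log2 fold change was 1.66 ± 0.46 (adjusted p = 0.0174). It was not listed in HYP vs. WT, and its call in PCC vs. HYP (0.94 ± 0.24, adjusted p = 0.0375) was lost when any 1 of 9 samples was left out.

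The 3 tested genes of peptide processing and the granule membrane were called higher in PCC vs. WT. *Cpe*, the carboxypeptidase that trims peptides after cleavage, ranged from 58.5 to 197 CPM in WT and from 202 to 726 in PCC. The log2 fold change of *Cpe* was 1.33 ± 0.45 (adjusted p = 0.0398), a call lost when any 1 of 6 samples was left out, WT replicate 1, 3, 4 or 5 or PCC replicate 1 or 4. *Cyb561*, the cytochrome that passes electrons into the granule for dopamine beta-hydroxylase, was second to *Scg2* in level per kb in each group, with 133, 303 and 486 CPM per kb in WT, HYP and PCC, and its log2 fold change in PCC vs. WT was 1.79 ± 0.46 (adjusted p = 0.0112). *Ptprn2* was 80.7, 103, 84.0, 65.6 and 24.2 CPM in WT and 143, 207, 127, 170 and 214 CPM in HYP. It was 395, 347, 370, 480 and 238 CPM in PCC, and none of the 3 groups overlapped. Its log2 fold change was 2.28 ± 0.38 in PCC vs. WT (adjusted p = 0.00111), 1.20 ± 0.32 in HYP vs. WT (adjusted p = 0.0231) and 0.97 ± 0.22 in PCC vs. HYP (adjusted p = 0.0222). *Pcsk1n*, the inhibitor of the convertase PC1, had too few counts to be tested.

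Of 8 vesicle membrane proteins 7 were called higher and 1 lower in PCC vs. WT. *Syp*, which encodes synaptophysin, was 136, 156, 133, 102 and 31.4 CPM in WT. It was 221, 257, 160, 254 and 315 CPM in HYP and 486, 515, 589, 1273 and 426 CPM in PCC. The PCC samples were all above the HYP samples, and PCC replicate 4 was the highest. The log2 fold change was 2.48 ± 0.47 in PCC vs. WT (adjusted p = 0.00230) and 1.32 ± 0.30 in PCC vs. HYP (adjusted p = 0.0246), while in HYP vs. WT it was 1.05 ± 0.35 and was not called (adjusted p = 0.0604). *Synpr*, which encodes the related synaptoporin, was near 0 in WT, with 17 reads over the 5 samples and 0.0474 to 0.318 CPM. It reached 0.490 to 1.63 CPM in HYP and 4.83 to 18.2 CPM in PCC. The ratio of PCC to WT counts, scaled by library, was 53.3, with a 95% interval of 33.1 to 91.8 that covers counting error only. The fitted log2 fold change, which depends on the prior count at such levels, was 5.66 ± 0.57 (adjusted p = 0.000109), and it was 2.98 ± 0.46 in PCC vs. HYP (adjusted p = 0.00495).

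The SV2 proteins are transporter-like glycoproteins of secretory vesicles and they differed in pattern. *Sv2a* ranged from 10.9 to 39.3 CPM in WT, 30.8 to 56.6 in HYP and 70.7 to 157 in PCC. *Sv2b* was at 0.0949, 0.0474, 0.690, 0.132 and 0 CPM in WT and at 2.38, 4.42, 2.02, 2.92 and 3.62 CPM in HYP. In PCC it was 2.55, 12.7, 0.756, 0.904 and 1.55 CPM, so 3 of the 5 PCC samples were below every HYP sample and 1 was far above them. WT replicate 3 held 13 of the 18 WT reads. The fitted log2 fold change was 4.18 ± 1.06 in PCC vs. WT (adjusted p = 0.0108) and 3.86 ± 0.60 in HYP vs. WT (adjusted p = 0.00186). *Syngr2*, a synaptogyrin found on vesicles of many cell types, was the member of this role called lower (-0.73 ± 0.22 in PCC vs. WT), and it lost the call without WT replicate 3 or 4 and without PCC replicate 1, 2 or 4.

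Among the calcium sensors 13 of 14 were called higher in PCC vs. WT, beside 46.7% of all genes tested, and 8 of 9 in PCC vs. HYP, beside 21.8%. *Syt1*, the synaptotagmin of fast release (chromosome 7, 50084060 to 50638798, minus strand), was 69.0, 87.9, 62.1, 62.5 and 13.9 CPM in WT. It was 185, 269, 178, 166 and 207 CPM in HYP and 702, 653, 576, 795 and 328 CPM in PCC. None of the 3 groups overlapped, and WT replicate 5 and PCC replicate 5 were the lowest of their groups. The log2 fold change was 3.29 ± 0.47 in PCC vs. WT (adjusted p = 0.000537), 1.70 ± 0.37 in HYP vs. WT (adjusted p = 0.00955) and 1.49 ± 0.25 in PCC vs. HYP (adjusted p = 0.00688).

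*Syt7*, a slower sensor of high calcium affinity that is prominent in chromaffin granules, differed less. It ranged from 24.0 to 79.3 CPM in WT, from 84.5 to 174 in HYP and from 125 to 285 in PCC, where 4 of the 5 samples were within the HYP range, and it was not listed in PCC vs. HYP. *Syt7* had a log2 fold change of 1.54 ± 0.36 in PCC vs. WT (adjusted p = 0.00685) and 1.17 ± 0.29 in HYP vs. WT (adjusted p = 0.0182). The ratio of *Syt1* to *Syt7* per kb within a sample was 0.331 to 0.726 in WT, 0.675 to 1.20 in HYP and 1.49 to 3.04 in PCC. Every PCC sample had more *Syt1* than *Syt7* per kb, and every WT sample had less. *Syt4*, a synaptotagmin whose calcium binding is weak, was called higher in all 3 comparisons, but the call was lost in 8 of the 10 fits of PCC vs. HYP and in 4 of those of HYP vs. WT that left out a sample. The ratio of *Syt1* to *Syt4* was 0.542 to 0.818 in WT, 0.774 to 1.01 in HYP and 1.19 to 1.54 in PCC. These ratios do not depend on the scaling of a library, and they were described and not tested.

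Levels were also set against *Th*, tyrosine hydroxylase, as 1 chromaffin gene measured in the same sample. The ratio of *Syt1* to *Th* per kb was 0.00704 to 0.0110 in WT, 0.0133 to 0.0284 in HYP and 0.0184 to 0.0363 in PCC, so that WT did not overlap with either MENX group. The ratio of *Scg2* to *Th* was 0.273 to 0.357 in WT, 0.290 to 0.609 in HYP and 0.205 to 0.440 in PCC, and these ranges overlapped. The ratios of *Syp* to *Th* (0.0507 to 0.0738 in WT and 0.0407 to 0.129 in PCC) and of *Cyb561* to *Th* (0.0705 to 0.123 in WT and 0.0369 to 0.192 in PCC) overlapped too. The ratios of *Snap25* to *Th* (0.0218 to 0.0392 in WT and 0.0372 to 0.0632 in PCC) and of *Cadps* to *Th* (0.00178 to 0.00672 in WT and 0.00357 to 0.00799 in PCC) overlapped as well. In HYP the ratio of *Snap25* to *Th* was 0.0499 to 0.1315, above every WT sample, and that of *Cadps* was 0.00180 to 0.00689, which overlapped with WT. Of the 6 ratios to *Th* that were computed, *Syt1* alone separated PCC from WT, only *Syt1* and *Snap25* separated HYP from WT, and none was tested.

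**Figure D3:**
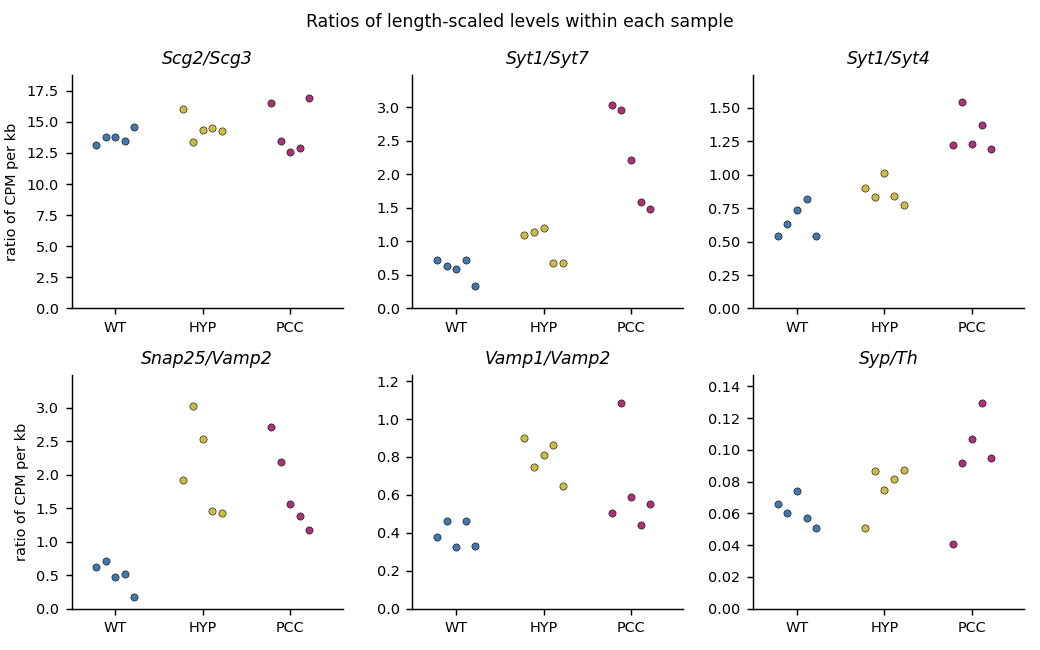
Ratios of 2 genes' levels per kb within each sample of WT, HYP and PCC, on linear axes from 0, with replicates 1 to 5 from left to right. The ratio of *Syt1* to *Syt7* is 1.49 or more in each PCC sample and 0.726 or less in each WT sample, while *Scg2* to *Scg3* is 12.6 to 16.9 in all samples.

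*Doc2b*, a calcium sensor with C2 domains that binds Munc13, was 15.4, 22.9, 24.4, 18.2 and 12.4 CPM in WT. It was 39.3, 66.3, 47.9, 57.4 and 66.7 CPM in HYP and 148, 178, 170, 236 and 102 CPM in PCC. The log2 fold change was 3.11 ± 0.29 in PCC vs. WT (adjusted p = 9.87e-05), 1.52 ± 0.22 in HYP vs. WT and 1.47 ± 0.22 in PCC vs. HYP. Its relative *Doc2a* was called lower, at -1.65 ± 0.40 in PCC vs. WT (adjusted p = 0.00883) and -0.93 ± 0.25 in HYP vs. WT (adjusted p = 0.0266). *Doc2a* was 4.31 to 6.95 CPM in WT and 0.856 to 4.35 CPM in PCC, with PCC replicate 5 within the WT range. Its call in PCC vs. WT was lost when each library was scaled by its summed reads over listed genes.

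*Syt6* was almost absent from WT, with 7 reads over the 5 samples and at most 3 in 1 sample. It was 2.45 to 7.78 CPM in HYP and 2.81 to 13.4 CPM in PCC, and these 2 groups overlapped. The ratio of counts to WT, scaled by library, was 58.4 in HYP (95% interval 28.1 to 146) and 92.6 in PCC (44.7 to 231). The fitted log2 fold changes, which depend on the prior count, were 5.70 ± 0.60 (adjusted p = 0.000259) and 6.35 ± 0.70 (adjusted p = 0.000152). *Syt5* and *Syt13* were listed in PCC vs. WT and PCC vs. HYP and not in HYP vs. WT. *Syt5* was 2.83 to 9.19 CPM in WT, 4.59 to 9.43 in HYP and 12.9 to 41.9 in PCC, with a log2 fold change of 1.85 ± 0.30 in PCC vs. HYP (adjusted p = 0.00618). *Syt9*, which shares the fast release role with *Syt1* in some cells, was 3.80 to 16.1 CPM in WT and 30.4 to 48.5 CPM in PCC. Unlike in most members, the highest WT value of *Syt9* was in WT replicate 5.

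**Figure D4:**
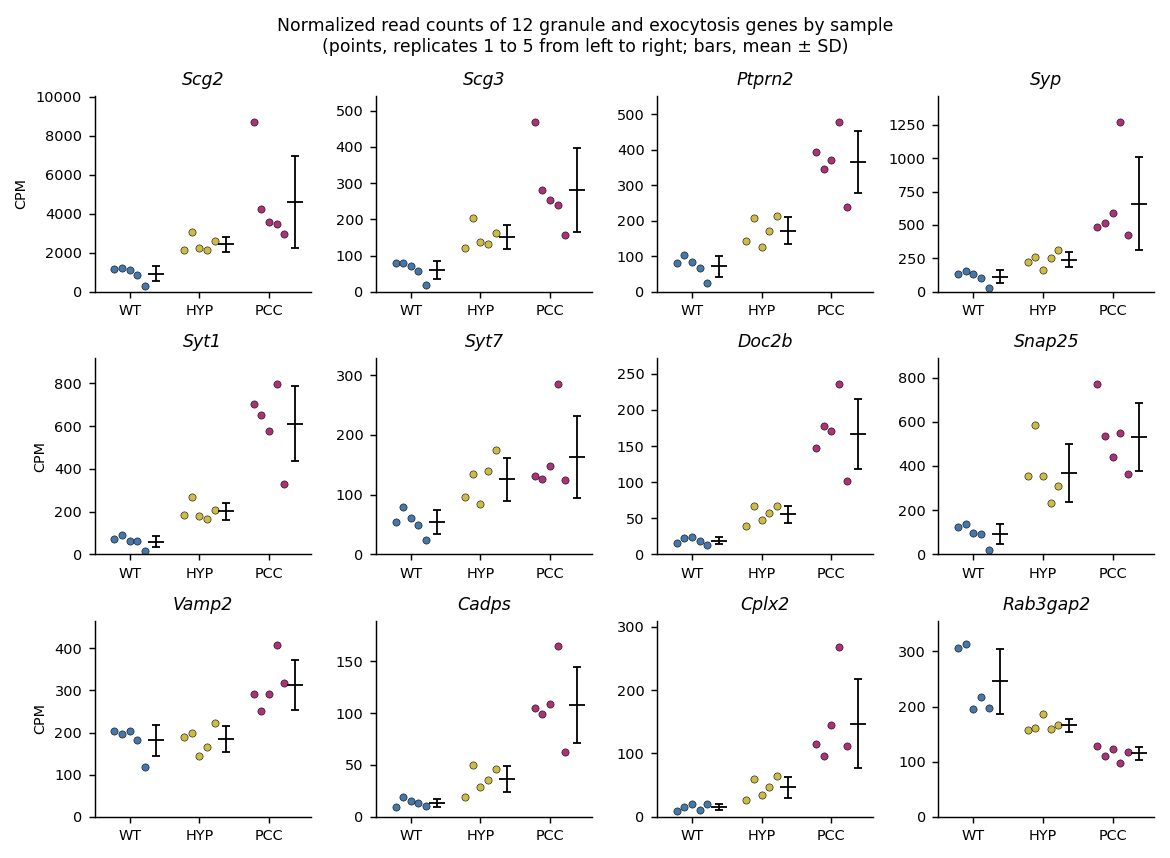
Level in CPM (vertical axes, linear from 0) of 12 members in each sample of WT, HYP and PCC, with replicates 1 to 5 from left to right and the mean ± SD beside them. *Syt1*, *Doc2b*, *Cadps* and *Ptprn2* separate PCC from WT in every sample, *Vamp2* overlaps between WT and HYP, and *Rab3gap2* falls from WT to PCC.

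The SNARE proteins differed among themselves in direction. *Snap25*, *Stx1a*, *Vamp1* and *Vamp2*, which encode the SNAREs of neuronal and neuroendocrine exocytosis, were called higher in PCC vs. WT. *Snap25* was 123, 137, 95.2, 92.2 and 20.3 CPM in WT, 355, 587, 355, 234 and 309 in HYP and 770, 536, 443, 551 and 362 in PCC. The HYP and PCC ranges overlapped. *Snap25* had a log2 fold change of 2.42 ± 0.46 in PCC vs. WT (adjusted p = 0.00227) and 1.91 ± 0.42 in HYP vs. WT (adjusted p = 0.00991).

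*Vamp2* differed least of these 4, with 118 to 204 CPM in WT, 144 to 223 in HYP and 252 to 409 in PCC. Its log2 fold change was 0.73 ± 0.22 in PCC vs. WT (adjusted p = 0.0261), and in PCC vs. HYP its call (0.64 ± 0.18, adjusted p = 0.0489) was lost when any 1 of the 10 samples was left out. The ratio of *Snap25* to *Vamp2* per kb was 0.177 to 0.712 in WT, 1.43 to 3.03 in HYP and 1.17 to 2.71 in PCC, so WT stood apart from both MENX groups. The ratio of *Vamp1* to *Vamp2* was 0.328 to 0.462 in WT, 0.648 to 0.898 in HYP and 0.441 to 1.08 in PCC. *Stx1a* was 6.10 to 12.1 CPM in WT, 12.7 to 18.3 in HYP and 22.4 to 38.8 in PCC, and the groups did not overlap. In PCC vs. WT its log2 fold change was 1.57 ± 0.27 (adjusted p = 0.00125) and that of *Vamp1* was 1.35 ± 0.28 (adjusted p = 0.00392). The call of *Stx1a* in PCC vs. HYP (0.71 ± 0.19) was lost when any 1 of 8 samples was left out.

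The other SNAREs serve the endosome, lysosome, Golgi or the plasma membrane of many cell types. *Vamp8*, an endosomal SNARE, was called lower in PCC vs. WT (-0.77 ± 0.21) and in HYP vs. WT (-0.67 ± 0.20), and *Stx11*, a SNARE of immune cells, was called lower in PCC vs. WT (-1.60 ± 0.49). *Stx11* lost its call when 1 of 5 samples was left out, WT replicate 1 or 3 or PCC replicate 1, 2 or 4. *Stx4*, *Stx7*, *Stx17* and *Vamp5* had negative values that were not called in PCC vs. WT, and so had *Stx5*, which was called lower in HYP vs. WT (-0.54 ± 0.14). The fitted signs of *Stx4* and *Stx5* in PCC vs. WT turned positive when each library was scaled by its summed reads over listed genes. *Stx6* of the Golgi (0.99 ± 0.17) and *Stx16* (0.57 ± 0.18) were called higher in PCC vs. WT, and *Stx16* lost its call when any 1 of 6 samples was left out. Of 11 leukocyte markers 1, *Cd14*, could be tested in PCC vs. WT. It was 17.9 to 24.7 CPM in WT, 12.8 to 21.7 in HYP and 4.42 to 15.9 in PCC (-1.48 ± 0.33), and its part in the values of *Stx11* and *Vamp8* was not tested.

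Among the SNARE regulators 8 of 9 were called higher in PCC vs. WT and none lower. *Cadps*, which encodes the CAPS protein that primes dense core granules, was 9.06, 19.1, 15.6, 13.6 and 10.2 CPM in WT. It was 19.2, 50.1, 29.0, 35.6 and 46.5 CPM in HYP and 105, 99.3, 108, 164 and 62.4 CPM in PCC. None of the groups overlapped. Its log2 fold change was 2.94 ± 0.31 in PCC vs. WT (adjusted p = 0.000125), 1.36 ± 0.28 in HYP vs. WT (adjusted p = 0.00730) and 1.46 ± 0.28 in PCC vs. HYP (adjusted p = 0.0136). Its paralog *Cadps2* had a negative value that was not called (-0.80 ± 0.33 in PCC vs. WT), with 10.2 to 39.6 CPM in WT and 7.15 to 15.3 in PCC.

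*Cplx2*, which encodes the complexin that clamps and then aids the SNARE complex, was 8.87, 15.6, 20.2, 11.2 and 20.9 CPM in WT. It was 26.2, 59.9, 34.7, 47.2 and 63.9 CPM in HYP and 115, 95.3, 144, 269 and 111 CPM in PCC, again without overlap. Its log2 fold change was 3.23 ± 0.34 in PCC vs. WT (adjusted p = 0.000127) and 1.54 ± 0.31 in PCC vs. HYP (adjusted p = 0.0154). *Unc13a* and *Unc13b*, which encode the Munc13 priming factors, had log2 fold changes of 1.30 ± 0.24 and 1.42 ± 0.28 in PCC vs. WT.

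Of 12 genes of Rab3, Rab27 and the active zone 10 were called higher and 2 lower in PCC vs. WT. *Rab3a* and *Rab3c*, GTPases of secretory vesicles, had log2 fold changes of 1.40 ± 0.20 and 2.45 ± 0.24, and *Rab27a*, which tethers granules to the cell cortex, had 1.54 ± 0.36. *Rab3c* was 17.6 to 24.0 CPM in WT, 34.1 to 104 in HYP and 72.1 to 175 in PCC. *Ppfia2*, a liprin of the active zone, was 10.5 to 51.2 CPM in WT, 104 to 142 in HYP and 155 to 298 in PCC, and it was called in all 3 comparisons, with the PCC vs. HYP call lost when any 1 of 6 samples was left out. *Rims2*, a Rab3 effector at release sites, was 5.30 to 11.8 CPM in WT, 17.6 to 33.5 in HYP and 24.9 to 53.3 in PCC.

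*Rab3gap2*, a subunit of the complex that switches Rab3 off, went the other way. It was 306, 313, 195, 217 and 197 CPM in WT, 157, 160, 186, 158 and 167 in HYP and 128, 110, 122, 96.7 and 118 in PCC. None of the groups overlapped. Its log2 fold change was -1.16 ± 0.22 in PCC vs. WT (adjusted p = 0.00208), -0.62 ± 0.19 in HYP vs. WT (adjusted p = 0.0415) and -0.64 ± 0.15 in PCC vs. HYP (adjusted p = 0.0288). The calls of HYP vs. WT and of PCC vs. HYP were each lost when 1 of 6 samples was left out, and all 3 calls were lost with that scaling by summed reads, where the values stayed negative. *Sytl5*, a Rab27 effector, and *Ppfia4* were higher in HYP than in WT (1.89 ± 0.29 and 1.12 ± 0.32) and had negative values in PCC vs. HYP that were not called (-1.51 ± 0.50, adjusted p = 0.0850, and -0.95 ± 0.32, adjusted p = 0.0849). *Sytl2* was called lower than WT in PCC and HYP from few reads, 1.12 to 3.46 CPM in WT, and it lost the PCC call when 1 of 8 samples was left out.

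Of the 7 other genes tested in PCC vs. WT 5 were higher and 2 lower. *Rab37*, a Rab of secretory granules in several cell types, was 0 to 0.473 CPM in WT with 22 reads in all, 1.25 to 3.13 CPM in HYP and 3.32 to 16.1 CPM in PCC. The ratio of PCC to WT counts was 26.0 (95% counting interval 17.0 to 41.8), and the fitted log2 fold change was 4.67 ± 0.72 (adjusted p = 0.000798). *Rab35*, of endosomal recycling, was called lower in PCC vs. WT (-0.85 ± 0.15) and HYP vs. WT (-0.59 ± 0.16), with 94.6 to 149 CPM in WT and 59.7 to 73.1 in PCC.

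Lists of related genes outside the name pattern were counted in the same fits, where 46.7% of all genes tested were higher and 38.5% lower in PCC vs. WT. In PCC vs. WT, 16 of 20 tested genes of vesicle loading and granule biogenesis were higher and 2 lower, with *Slc18a2* (3.86 ± 0.42), the vesicular monoamine transporter, *Myo5a* (2.46 ± 0.25), *Mlph* (2.25 ± 0.54) and *Kif1a* (2.20 ± 0.32) the highest. Of 12 voltage-gated calcium channel genes 9 were higher and 1 lower, led by *Cacna2d4* (6.03 ± 0.94) and *Cacna2d2* (2.70 ± 0.51). The exocyst had 5 of 8 higher and 2 lower, endocytosis 5 of 9 higher and 3 lower, and other propeptide processing enzymes 2 of 6 higher and 3 lower, among them *Pcsk6* (2.45 ± 0.50) and *Pcsk5* (-3.17 ± 0.52), and these 3 counts lie near the shares of all genes. Of 8 neuron markers tested in PCC vs. WT 6 were higher and 1 lower. The 7 with values in every sample summed to 205 to 347 CPM in WT, 680 to 1165 in HYP and 698 to 2099 in PCC. *Tubb3* had no values in HYP and was not in that sum. The part of neurons in the members' values was not tested.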

How the data were processed

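Adrenal medulla RNA was sequenced from 15 rats as poly-A libraries made with a kit that does not mark strand, so overlapping antisense genes cannot be told apart. The authors aligned the reads with HISAT2 2.0.5 to the Rn06 build, counted them per gene with featureCounts 1.5.0-p3 and deposited raw read counts in 3 tables, which hold only genes with an adjusted p under 0.05 in their DESeq2 test. The tables also hold signal values that the authors made by dividing the counts by 1 size factor per sample, used for an alternative scaling, and FPKM values that the authors made from counts, gene length and library total, used to recover the library totals. The deposited log2 fold changes, p-values and adjusted p-values are the authors' findings and were not used, except to recover how many genes were tested in each comparison (18790 in PCC vs. WT, 18057 in HYP vs. WT and 17454 in PCC vs. HYP).

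Each comparison was fitted over all listed genes with edgeR 4.0.16 (R 4.3.3, limma 3.58.1), with TMM scaling, filterByExpr and the quasi-likelihood test, and p-values were adjusted by the Benjamini-Hochberg method over the number of genes the authors tested. CPM values used library totals recovered from the tables and TMM factors of the 5492 genes with values in all 15 samples. Where a group had few reads, ratios of summed counts were given with exact 95% binomial intervals. The scripts were tested on simulated data. DESeq2 1.42.0 was an alternative. The 5 samples of a group were taken as separate animals by the study's methods. The p-values set the difference between groups against the spread between animals, which was estimated over the listed genes only. Same-numbered samples did not deviate together in every pair, and the labels do not say what a shared number means. The numbers were taken to name animals only, and a block by number was an alternative.

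The members and gene lists were chosen with earlier results of these data known. Any member could be named with its role, and full statistics were set for the listed core genes and for the 5 called members with the largest change per direction and comparison whose groups did not overlap. Some of these are given only in the plot of fold changes. Of other lists up to 4 called genes were named. Results of some members are counted in the totals and are not reported here. Promoter windows came from RefSeq (GRCr8), a build other than that of the counts, and gene positions in Rn06 came from the tables.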

Additional observations from a re-analysis of the deposited data

Results flagged for a closer look

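In 91 groups of 5 samples of 32 core genes, 12 held a sample whose gap to the nearest other sample was more than 0.71 of the group's range, and chance flags about 1 in 20 such groups. In PCC, replicate 4 stood above the rest in *Cplx2* (269 CPM, next 144), *Syp* (1273, next 589) and *Syt7* (285, next 148), replicate 2 in *Sv2b* (12.7, next 2.55) and *Vamp1* (330.1, next 218), and replicate 1 in *Scg2* (8728, next 4253). PCC replicate 4 had the lowest cortex marker sum, 893 CPM, and PCC replicate 1 the highest chromaffin marker sum, 28670 CPM. Their part in these values was not tested.

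In HYP, replicate 2 was high in *Rab3a* (45.3 CPM, next 33.8) and replicate 3 was low in *Stx1a* (12.7, next 17.6). In WT, replicate 3 was high in *Pcsk1n* (3.56 CPM, above the other 4) and *Sv2b* (0.690, next 0.132), and replicate 5 was high in *Unc13a* (88.8, next 62.3) and low in *Vamp2* (118, next 182).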

How the results depend on the processing

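The counts of members called higher in PCC vs. WT (57) and HYP vs. WT (38) stayed within 1.5 times under the other settings, apart from the added scaling and the cortex covariate, which left 7 and 1, and the count in PCC vs. HYP (20) fell to 0 with that covariate and to 9 with adjustment over the 47357 genes of the reference table. The counts called lower (8, 8 and 1) depended most on the scaling and on small changes. With the total of the listed counts they were 0, 0 and 0, with recovered library totals 4, 0 and 0, and with the cortex covariate 0, 0 and 0. DESeq2 gave 14 in PCC vs. WT and 5 in PCC vs. HYP, and adjustment over the reference table gave 5, 0 and 0. A minimum of 10 counts in every sample gave 2 in HYP vs. WT, and 1 fit of all 15 samples gave 4 in HYP vs. WT and 0 in PCC vs. HYP. The total of the listed counts moved the median of all genes by 0.50, 0.46 and 0.15 on the log2 scale, and it turned *Stx5* and *Stx4* to 0.094 and 0.13 in PCC vs. WT and *Stx4* to 0.046 in HYP vs. WT. The causes of these changes beyond the shift in scale were not tested.

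Leaving out 1 sample gave 52 to 57 higher and 5 to 10 lower in PCC vs. WT, 28 to 42 higher and 1 to 7 lower in HYP vs. WT, and 6 to 26 higher and 0 to 2 lower in PCC vs. HYP. The lowest count of lower calls in HYP vs. WT was that without HYP replicate 2. Calls of named members were also lost without 1 sample in HYP vs. WT for *Ppfia4* (any of 6 samples), *Vamp8*, *Doc2a* and *Sytl2* (5 each), *Stx1a* (3), *Rab35* (2) and *Ptprn2* (WT replicate 4), in PCC vs. HYP for *Rab27a* (8), *Syp* (HYP replicate 1, 2, 3 or 4) and *Cplx2* and *Ptprn2* (HYP replicate 3 or 4), and in PCC vs. WT for *Vamp2* (WT replicate 4 or PCC replicate 4). *Napa* was also not called in HYP vs. WT under 3 other scalings. Without WT replicate 5, the sample with the least chromaffin marker RNA, there were 56 higher in PCC vs. WT and 42 in HYP vs. WT.

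The scaling to chromaffin markers, chosen after the data were seen, gave 3 higher and 36 lower in PCC vs. WT, 3 higher and 10 lower in HYP vs. WT and 1 higher and 15 lower in PCC vs. HYP, with shifts of the median of all genes of -3.17, -1.76 and -1.23. It is given as counts for the members: the sign turned in 51, 30 and 31 of them. Of those 22, 0 and 0 were called in both fits with opposite signs. The size of the shift differed between members, and its part in the turned signs was not tested. Among all genes 79.4%, 52.1% and 55.3% were then called lower. Some of the 10 markers changed by more than most members (*Ret* by 4.80 and *Slc18a2* by 3.86 in PCC vs. WT), so this scale carries their changes.

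The labels share replicate numbers between groups. The correlation of same-numbered samples ran from -0.13 to 0.20 in PCC vs. WT, from -0.11 to 0.26 in HYP vs. WT and from -0.23 to 0.25 in PCC vs. HYP, and 2, 2 and 1 samples correlated best with their own number. With the replicate number as a block, 5 members were lower in PCC vs. WT and 3 in HYP vs. WT, and in PCC vs. HYP 6 were higher and 0 lower.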
